A study of Mus musculus with 24 samples.

Results

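Amino acid carriers of the Slc1a, Slc3a, Slc6a, Slc7a, Slc36a, Slc38a and Slc43a families were described in mouse kidney after myocardial infarction (MI). Members were taken by the family part of the gene symbol, and 66 of the 56941 genes in the count table are described here. Of these the Slc6a family holds 22, followed by Slc7a with 16, Slc38a with 11, Slc1a with 7, Slc36a with 5, Slc43a with 3 and Slc3a with 2. Of the 66, 41 reached a mean CPM (a count scaled to the same library total in every kidney) of at least 1 and 38 had enough counts for a test between groups. Opposite-strand names are carried by 4 members, and of these Slc7a6os encodes another protein and was tested, whereas Slc36a1os, Slc36a3os and Slc6a19os are antisense transcripts below that level.

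The kidneys came from male wildtype C57BL/6J mice that were 8 to 11 weeks old at surgery. In MI mice the left anterior descending coronary artery was tied permanently, and sham mice had the same surgery without the ligation. Groups were sham with 8 kidneys, 5d post-MI with 8 and 28d post-MI with 6, and sham kidneys, collected 5d after surgery, were the reference at both times, so that days since surgery and MI cannot be told apart at 28d. RNA was read by Massive Analysis of cDNA Ends (MACE), which counts molecules at the 3′ ends of mRNA, with 2280618 to 3786275 counts per kidney.

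The kidney filters amino acids freely and the proximal tubule takes nearly all of them back. Carriers in the brush border bring them from the filtrate into the cell, mostly with sodium, and carriers in the basolateral membrane pass them on to the blood. Several light chains of the Slc7a family reach the membrane only when bound to a heavy chain of the Slc3a family, and a further group of carriers is known to be switched on by the transcription factor ATF4 when amino acids run short.

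The members together took between 0.328% and 0.365% of the counts of a kidney. Levels below are CPM after normalization by trimmed mean of M values (TMM) and were not divided by gene length, since each molecule is read once at its 3′ end. In sham kidneys Slc7a13, a cystine and acidic amino acid light chain of the late proximal tubule, was at 816 ± 91.9 CPM (SD, n = 8). Slc6a18 and Slc6a19, brush border carriers of neutral amino acids, were at 363 ± 27.1 and 236 ± 43.7 CPM. The taurine carrier Slc6a6, the glutamate and aspartate carrier Slc1a1, the creatine carrier Slc6a8 and the imino acid carrier relative Slc6a20b were between 156 and 198 CPM. At the other end of the range, 25 members had a mean under 1 CPM, and 4 of those, Slc36a3, Slc38a8, Slc6a11 and Slc6a21, had no count in any kidney. A count of 0 allows up to 3 counts, a limit that covers counting error only.

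Of the classical carriers Slc3a1 was nearly absent from the counts and Slc7a7 was low. Slc3a1, the heavy chain that Slc7a13 and Slc7a9 need in the brush border, had a mean of 0.793 CPM, under the level at which groups were compared. Slc7a7, the basolateral carrier of cationic amino acids whose loss causes lysinuric protein intolerance, had a mean of 3.13 CPM. It had between 5 and 17 counts per kidney and did not pass the count filter. Both genes end against a neighbour on the opposite strand in the GENCODE M21 annotation of build GRCm38. Slc3a1 (chr17:85028376-85064236) shares 767 bases with Prepl (chr17:85063470-85090224), and all of its last 300 exonic bases lie in Prepl exons. Slc7a7 (chr14:54369442-54417699) shares 232 bases with Oxa1l (chr14:54360841-54369673), which cover 76.57% of its last exonic bases. Prepl was at 21.3 ± 1.21 CPM and Oxa1l at 56.8 ± 2.89 CPM in sham kidneys. The last 300 bases of Slc6a20b are 99.67% covered by Sacm1l, and Slc6a20b was counted at 156 ± 13.3 CPM in sham. Those of Slc6a9 are wholly covered by Ccdc24, and its mean was 0.0135 CPM. Among all 21864 protein-coding genes 8.25% have some of this window covered from the opposite strand, and 5 of the 63 protein-coding members (7.94%) do. Most of the window is covered in 3.38% of all protein-coding genes and in 4 of the members (6.35%). Whether reads were counted by strand is not given in the sources used here, and the part of these overlaps in the low counts was not tested.

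**Figure D1:**
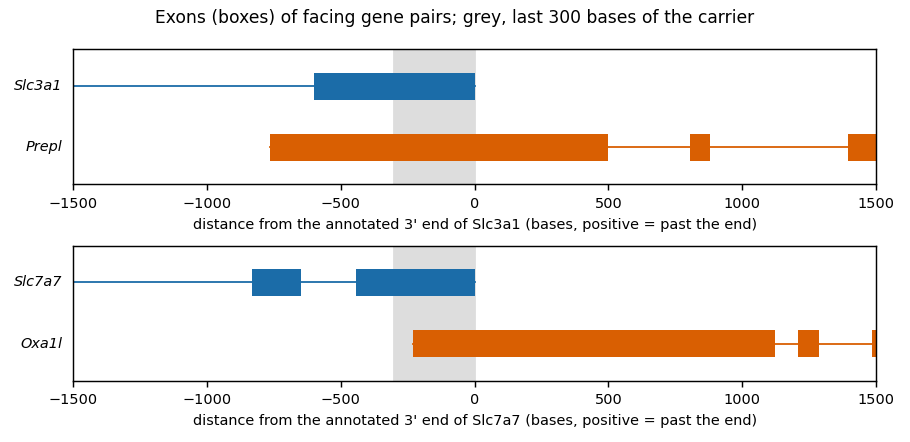
Annotated exons (boxes) of Slc3a1 with Prepl and of Slc7a7 with Oxa1l are drawn by distance in bases from the 3′ end of the carrier, with its last 300 bases in grey. The grey window lies wholly inside a Prepl exon in the upper map, and mostly inside an Oxa1l exon in the lower one.

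The kidney pieces differed in what they held besides tubule. Haemoglobin genes were higher at 5d post-MI, with all 4 tested genes of the blood list called in edgeR's quasi-likelihood test and a summed level of 4968 to 19089 CPM, against 2200 to 4124 CPM in sham and 1795 to 5122 CPM at 28d. The summed adipocyte list had medians of 1161, 1042 and 540 CPM in sham, 5d and 28d kidneys. Adrenal steroid genes summed to 966 CPM in sham kidney 2, 719 CPM in sham kidney 6 and 84.0 CPM in 5d kidney 5, and the medulla list was highest in 5d kidney 7 at 1428 CPM. The plasma cell list (Jchain and Igkc) summed to 9.02 to 49.1 CPM in sham, 8.81 to 63.8 CPM at 5d and 79.1 to 124 CPM at 28d, where it did not overlap with the others, and both genes were called at 28d against 5d. Podocyte genes summed to 144 to 183, 164 to 239 and 147 to 209 CPM, and all 5 had estimates above 0 at both times against sham, with none called. Proximal tubule markers summed to 50506 to 60916 CPM in sham, 35037 to 67641 CPM at 5d and 62646 to 71372 CPM at 28d, with 5d kidney 2 lowest. Most of this sum is Kap, with means of 48618, 48707 and 58960 CPM, and by the mean log2 CPM of the list, in which each gene counts equally, sham kidneys (8.31 to 8.55) and 28d kidneys (8.44 to 8.57) overlapped. Of the proximal tubule markers the early-segment gene Slc5a2 was at 1.07 CPM or below in every kidney. Others were abundant, such as Slc34a1 and Slc22a6 at means of 4313 and 648 CPM in sham. The reason for the low Slc5a2 count was not tested. The part of this make-up in the carriers' values was not tested beyond the fits named with them, and fewer cells of a type and less RNA per cell cannot be told apart in whole tissue.

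No carrier passed the test after adjustment for all 12780 genes tested. At 5d post-MI, 0 of the 38 were called, against 0.0704% of all genes, at 28d 0 of 38 against 0.0235%, and between 28d and 5d 0 of 38 against 0.415%. DESeq2 and limma voom called 0 of them as well in each comparison. Estimates were above 0 for 20 of 38 at 5d (52.6%, all genes 50.1%), 17 at 28d (44.7%, all genes 49.6%) and 12 between 28d and 5d (31.6%, all genes 48.6%). At an unadjusted p under 0.05, 8 members passed at 5d (21.1%, all genes 7.9%), 5 higher and 3 lower, where 3.92% and 3.97% of all genes passed in these directions. The higher ones were Slc6a20a, Slc6a6, Slc6a15, Slc6a18 and Slc7a9, and the lower ones Slc1a5, Slc36a4 and Slc43a2. At 28d the number was 9 (23.7%, all genes 8.68%), with Slc38a2, Slc38a7, Slc6a20b and Slc7a13 higher and Slc1a5, Slc36a4, Slc38a1, Slc6a19 and Slc7a8 lower, beside 4.45% and 4.23% of all genes. Between 28d and 5d it was 7 (18.4%, all genes 9.05%), with Slc38a2, Slc38a7 and Slc7a13 higher and Slc38a1, Slc3a2, Slc6a20a and Slc7a12 lower at 28d, beside 5.03% and 4.01% of all genes. Slc38a1 and Slc7a12 passed the count filter only through sham and 5d kidneys, so their place among those lower at 28d carries no weight. The number at 5d was 2 with a blood score (the mean log2 CPM of that list) and 5 with an adipocyte score in the fit. Every 5d kidney lay above every sham kidney in the blood list. Fits with the blood score, here and below, therefore cannot well tell this score from the 5d group. Between 28d and 5d the number was 3 or 4 when 5d kidney 1, 2, 3 or 5 or 28d kidney 1 or 3 was left out, and 3 with a proximal tubule score in the fit.

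The estimates were small. The median log2 fold change of the 38 members was 0.05 at 5d, −0.06 at 28d and −0.08 between the times, with 0.00018, −0.0012 and −0.0046 over all genes tested, and the median size regardless of direction was 0.16, 0.15 and 0.12 against 0.08, 0.09 and 0.09. The 95% interval excluded a change of 2-fold or more for 37 of the 38 at 5d and for 35 at 28d. The members for which it did not were Slc7a12 at 5d, and Slc7a12, Slc38a1 and Slc7a5 at 28d. The groups overlapped in all 38 members in each comparison, as in nearly all genes, of which 0.0548%, 0.258% and 0.344% did not overlap. The 5d and 28d comparisons share their sham kidneys and are not independent of each other. Replicates are separate mice, and p-values measure the spread between these mice.

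**Figure D2:**
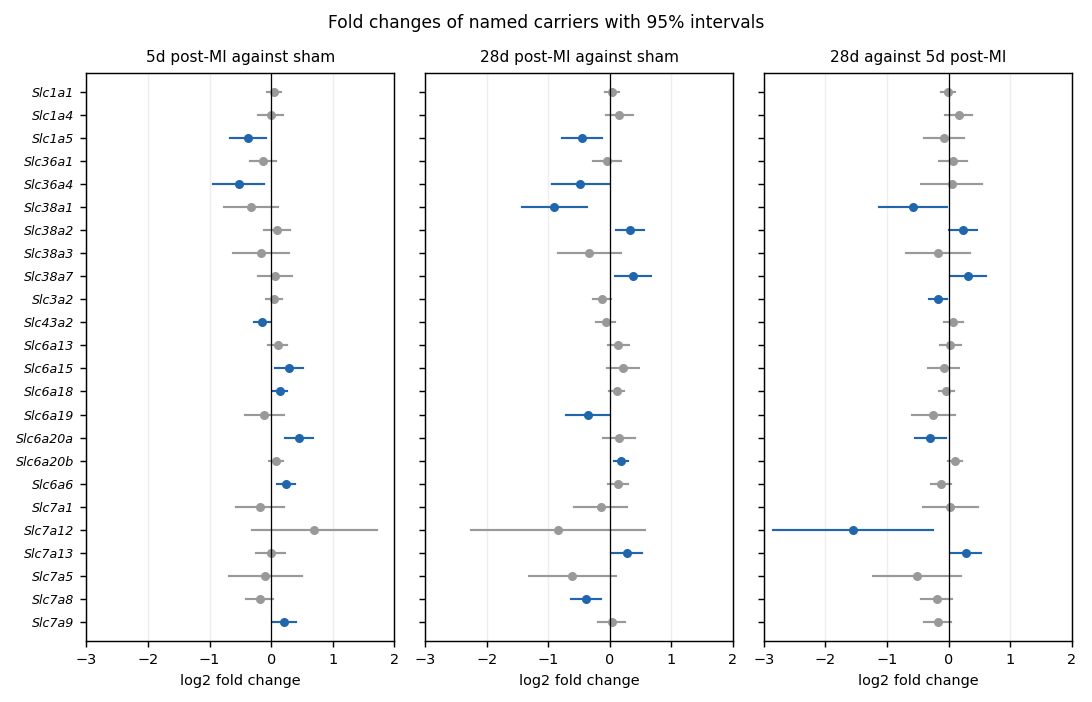
Points are edgeR log2 fold changes of 24 named carriers and lines their 95% intervals, in blue where the unadjusted p is under 0.05 and grey otherwise, in 3 panels for 5d against sham, 28d against sham and 28d against 5d. No carrier passed after adjustment, and apart from those of Slc7a12, Slc38a1, Slc7a5 and Slc36a4 the estimates lie between −0.45 and 0.45.

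Among brush border carriers the imino acid (proline) carrier Slc6a20a stood first at 5d post-MI. Its level ran from 10.5 to 21.0 CPM in sham kidneys (median 15.5), from 17.4 to 25.7 CPM at 5d (median 21.5) and from 14.5 to 21.3 CPM at 28d (median 17.0). All 8 kidneys at 5d lay above the sham mean and 4 of them above every sham kidney. The log2 fold change was 0.45 at 5d (SE 0.11, 95% interval 0.22 to 0.67, edgeR adjusted p = 0.128), and 0.15 at 28d (adjusted p = 0.809). The difference between the times was −0.30 (adjusted p = 0.433). With all 30116 genes that had a count in the fit, Slc6a20a passed at 5d with an adjusted p of 0.0412. That fit called many more genes in all at 5d and at 28d than the main fit. Of the members Slc6a20a had the lowest adjusted p at 5d in the main fit.

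Slc6a20b, a close relative next to Slc6a20a on chromosome 9, lay between 143 and 184 CPM in sham kidneys (median 150), 151 and 188 CPM at 5d (median 163) and 163 and 187 CPM at 28d (median 179.9). All 6 kidneys at 28d were above the sham mean but only 1 above every sham kidney. The log2 fold change was 0.08 at 5d and 0.18 at 28d (SE 0.06, edgeR adjusted p = 0.332). No stretch of 50 bases is shared between the last 300 bases of any members, Slc6a20a and Slc6a20b included.

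The taurine carrier Slc6a6, which also serves cells as an osmolyte carrier, ranged from 165 to 204 CPM in sham (median 195), 188 to 292 CPM at 5d (median 214) and 196 to 220 CPM at 28d (median 205). At 5d 5 of 8 kidneys exceeded every sham kidney, with kidney 2 highest. Its log2 fold change was 0.24 at 5d (SE 0.07, edgeR adjusted p = 0.343) and 0.18 without that kidney (adjusted p = 0.495). In the fit of all 30116 genes, which called many more genes than the main fit, its adjusted p at 5d was 0.00805. Of 7 tested genes of the response to hypertonicity, Slc6a6 and the inositol carrier Slc5a3 (log2 fold change 0.27, adjusted p = 0.598) had an unadjusted p under 0.05 at 5d, and the other 5 were below 0. Of all genes, 7.9% had such a p at 5d. The betaine carrier Slc6a12 had 0 to 16 counts per kidney and was not tested.

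The neutral carriers Slc6a18 and Slc6a19 lie next to each other on chromosome 13 and gave estimates of opposite sign at both times, which at 5d turned with a blood score in the fit (−0.0137 for Slc6a18, 0.29 for Slc6a19). Slc6a18 was between 315 and 399 CPM in sham (median 370), 338 and 454 CPM at 5d (median 394) and 361 and 425 CPM at 28d (median 388), with 4 of 8 kidneys at 5d above every sham kidney. Slc6a19 was between 181 and 288 CPM in sham (median 243), 145 and 285 CPM at 5d (median 217) and 134 and 243 CPM at 28d (median 169), with 4 of 6 kidneys at 28d lower than any sham kidney. For Slc6a18 the estimate was 0.14 on the log2 scale at 5d (edgeR adjusted p = 0.536) and 0.11 at 28d. That of Slc6a19 was −0.11 at 5d and −0.36 at 28d (SE 0.17, 95% interval −0.71 to −0.01, edgeR adjusted p = 0.565). Neither difference passed after adjustment.

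Both carriers need a partner at the brush border, which in kidney is Cltrn (collectrin). Cltrn was at 1190 ± 47.6 CPM in sham, 1195 ± 96.5 CPM at 5d and 1263 ± 59.3 CPM at 28d (adjusted p = 0.989 and 0.64). Of the 10 tested genes of a list of partners and other amino acid or peptide carriers, 1 had an unadjusted p under 0.05 at 5d, the peptide carrier Slc15a2, which was higher, and 2 at 28d, Ace and the mitochondrial aspartate-glutamate carrier Slc25a13, both higher. The shares over all genes were 7.9% and 8.68%. Between 28d and 5d, 3 were higher at 28d (Ace, Slc25a13 and the mitochondrial carrier Slc25a15) and 2 lower (Slc15a2 and the lysosomal carrier Ctns). Of all genes, 9.05% had such a p in that comparison. None was called.

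Slc7a13 had its highest median at 28d, but no difference passed after adjustment. It ranged from 685 to 993 CPM in sham (median 803), 482 to 996 CPM at 5d (median 860) and 885 to 1038 CPM at 28d (median 997). All 6 kidneys at 28d were above the sham mean, and 3 were above every sham kidney. The log2 fold change was −0.01 at 5d (SE 0.11), 0.27 at 28d (SE 0.12, edgeR adjusted p = 0.537) and 0.28 between the times (adjusted p = 0.487). With only sham and 28d kidneys in the fit, where more genes were called than in the main fit, it was 0.27 with an adjusted p of 0.0405. Kap, an abundant androgen-dependent proximal tubule gene, had a log2 fold change of 0.28 at 28d (adjusted p = 0.479), and with the proximal tubule score in the fit the estimate for Slc7a13 was 0.18 (adjusted p = 0.31). The 5d kidney with the lowest Slc7a13, kidney 2, was also the lowest in the summed proximal tubule list. In the other groups there was no such match. Sham kidney 3 and 28d kidney 7 were lowest in Slc7a13, and sham kidney 1 and 28d kidney 2 in the list.

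Slc7a9, the cystine and dibasic amino acid light chain mutated in cystinuria, was between 93.8 and 148 CPM in sham (median 118), 111 and 175 CPM at 5d (median 136) and 103 and 131 CPM at 28d (median 127). It had a log2 fold change of 0.21 at 5d (edgeR adjusted p = 0.612) and 0.03 at 28d, with 2 of 8 kidneys at 5d above all sham kidneys. Slc1a1 gave 198 ± 7.95 CPM in sham, 204 ± 20.9 CPM at 5d and 203 ± 16.8 CPM at 28d, and the interval of its log2 difference from sham ran from −0.07 to 0.15 at 5d and −0.09 to 0.15 at 28d. Slc36a1, a proton-coupled carrier of small neutral amino acids, had intervals of −0.34 to 0.08 and −0.28 to 0.17, and its 5d estimate of −0.13 was 0.0680 with the blood score in the fit. Of the 9 tested brush border carriers, 4 had an unadjusted p under 0.05 at 5d, all higher, and 3 at 28d, of which 2 were higher and 1 lower, beside 7.9% and 8.68% of all genes, and their median log2 fold change was 0.08 and 0.11, with 0.00018 and −0.0012 over all genes.

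**Figure D3:**
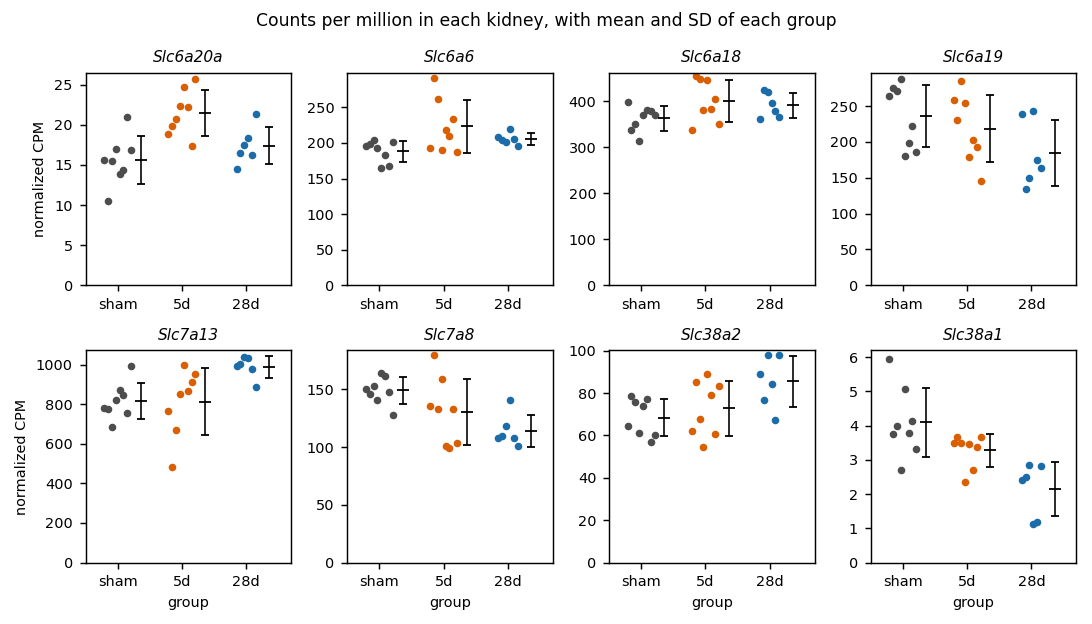
Points are the TMM-normalized CPM of 8 carriers in each kidney of sham (n = 8), 5d post-MI (n = 8) and 28d post-MI (n = 6), with the mean and SD of each group beside them and the axis starting at 0. Slc6a20a and Slc6a6 lie highest at 5d, Slc7a13 and Slc38a2 at 28d, and Slc6a19, Slc7a8 and Slc38a1 lie lowest at 28d, with overlap between the groups in all of them.

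On the basolateral side most estimates lay below 0 at 28d. Of 7 tested carriers 6 had a log2 fold change below 0 at 28d, with a median of −0.33, while the median of all genes tested was −0.0012, and 1, Slc7a8, had an unadjusted p under 0.05, beside 8.68% of all genes. Estimates were above 0 at 28d for 49.6% of all genes. The 7 include Slc7a12, an orphan light chain with few counts, at −0.85 (SE 0.68). It passed the count filter only through sham and 5d kidneys, and the median includes it. Slc7a8, a light chain that exchanges large and small neutral amino acids, lay between 128 and 164 CPM in sham (median 149), 99.3 and 180 CPM at 5d (median 133) and 101 and 141 CPM at 28d (median 109). At 28d 5 of 6 kidneys were below every sham kidney, and at 5d 3 of 8 were. Against sham its log2 fold change was −0.19 at 5d (adjusted p = 0.711, and 0.0117 with the blood score in the fit) and −0.38 at 28d (SE 0.12, 95% interval −0.63 to −0.14, edgeR adjusted p = 0.323). The call depended on the fit: with only sham and 28d kidneys its adjusted p was 0.00666, and with all 30116 genes 0.016. Both of these fits called more genes in all at 28d than the main fit. DESeq2 gave an adjusted p of 0.0646 and limma voom 0.354 for the same difference. Between 28d and 5d it was −0.20 (adjusted p = 0.672), so that no difference between the times was shown. The estimate without the kidneys that held adrenal genes was −0.37.

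Slc3a2, the heavy chain of Slc7a8 and Slc7a7, ranged from 127 to 157 CPM in sham (median 148), 132 to 188 CPM at 5d (median 138) and 121 to 148 CPM at 28d (median 131). All 6 kidneys at 28d were below the 5d mean. Its log2 fold change was 0.05 at 5d, −0.12 at 28d (adjusted p = 0.662) and −0.17 between the times (SE 0.07, edgeR adjusted p = 0.45). Slc43a2, a uniporter for branched-chain amino acids and phenylalanine, was between 116 and 137 CPM in sham (median 126), 85.2 and 143 CPM at 5d (median 116) and 111 and 132 CPM at 28d (median 119). At 5d 4 of 8 kidneys were below and 1 above every sham kidney, and the log2 fold change was −0.15 (edgeR adjusted p = 0.587), but 0.10 with the blood score in the fit.

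The glutamine carrier Slc38a3, which supplies the tubule with glutamine for ammonia production in acidosis, varied widely among sham kidneys. It ranged from 43.3 to 130 CPM in sham (median 71.6), 51.6 to 102 CPM at 5d (median 64.9) and 53.5 to 70.8 CPM at 28d (median 64.0), so that no kidney at 28d lay outside the sham range. Its log2 fold change of −0.33 at 28d had an interval of −0.85 to 0.18 (edgeR adjusted p = 0.769). Slc6a13, which takes up GABA, betaine and taurine, was 0.11 at 5d and 0.14 at 28d (adjusted p = 0.792 and 0.673), and −0.0100 at 5d with the blood score in the fit. Slc7a6, a light chain for cationic and neutral amino acids that is named here as a member of the basolateral list, was at 5.48 ± 1.37 CPM in sham, 4.31 ± 1.74 CPM at 5d and 4.07 ± 0.880 CPM at 28d, with log2 fold changes of −0.31 and −0.41 (adjusted p = 0.788 and 0.661). All 6 kidneys at 28d lay below the sham mean. Slc7a12, an orphan light chain of mouse kidney, had few counts and wide intervals. It ran from 0.555 to 6.63 CPM in sham, 1.22 to 8.84 CPM at 5d and 0.627 to 1.79 CPM at 28d, and the difference between the times was −1.55 (SE 0.63, 95% interval −2.85 to −0.25, edgeR adjusted p = 0.433). Slc7a12 had 2 to 5 counts per kidney at 28d, under the filter's minimum of 10, and was tested only through sham and 5d kidneys. The test of a lower level at 28d therefore cannot decide. It was in 20 of the 34 alternative fits.

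Among carriers that are textbook targets of ATF4 none was called. In cells short of amino acids, ATF4 binds elements of the form TGATGNAAN in and near its target genes. Promoter windows of RefSeq, build GRCm38.p6, reaching from 250 bases before to 50 bases after the transcript start, were found for 49 members. The letters, searched on both strands, stand in 4 of the 49 (8.16%), Slc1a4, Slc7a7, Slc7a11 and Slc6a21, and in 4.5% of all 27025 genes with a window. A match is a description of the letters and not of binding. Slc6a21 had no count in any kidney and is not shown. The sequences around the matches of Slc1a4 (chr11:20332670-20332758, minus strand), Slc7a11 (chr3:50443613-50443719, minus strand) and Slc7a7 (chr14:54417897-54417985 and chr14:54418037-54418125, minus strand) are shown in the direction of the gene, to set the promoter letters beside the levels, with the matching letters in capitals.
Slc1a4: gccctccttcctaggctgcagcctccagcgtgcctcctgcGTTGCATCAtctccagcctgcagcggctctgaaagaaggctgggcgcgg
Slc7a11: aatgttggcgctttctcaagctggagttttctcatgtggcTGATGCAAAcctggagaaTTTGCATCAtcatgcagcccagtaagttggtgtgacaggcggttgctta
Slc7a7, match nearer the gene: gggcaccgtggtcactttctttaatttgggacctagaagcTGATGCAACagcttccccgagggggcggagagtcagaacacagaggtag
Slc7a7, match further upstream: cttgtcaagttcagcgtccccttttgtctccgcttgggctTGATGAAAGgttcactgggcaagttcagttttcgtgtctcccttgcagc

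Slc7a11, the cystine-glutamate exchanger light chain with a facing pair of matches, was counted at 0.172 CPM on average, under the level for a comparison. Slc1a4, a carrier of alanine, serine and cysteine whose match lies on the opposite strand, was between 18.1 and 27.8 CPM in sham (median 24.4), 18.0 and 30.5 CPM at 5d (median 24.8) and 22.2 and 29.5 CPM at 28d (median 28.7). At 28d 4 of 6 kidneys lay above every sham kidney, and the log2 fold change was 0.15 (SE 0.11, edgeR adjusted p = 0.738).

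Atf4 itself rose at 28d post-MI. Its level was 122 to 148 CPM in sham (median 127), 117 to 151 CPM at 5d (median 126) and 138 to 204 CPM at 28d (median 177), and the log2 fold change was 0.43 at 28d against sham (SE 0.07, edgeR adjusted p = 0.00974) and 0.45 against 5d (adjusted p = 0.00181). Of 13 tested amino acid response genes outside the carrier families, Atf4 alone was called at 28d against sham, and Atf4, the stress factor Ddit3 (1.11, adjusted p = 0.0337) and the stress cytokine Gdf15 (1.45, adjusted p = 0.00342) were called as higher at 28d than at 5d. At an unadjusted p under 0.05, 3 (Atf4, Ddit3 and Gdf15) were higher at 28d against sham, beside 8.68% of all genes. At 5d 12 of the 13 were below 0 (median −0.14), with Gdf15 and Shmt2 at an unadjusted p under 0.05, beside 7.9% of all genes. Ddit3 ran from 1.90 to 5.55 CPM in sham and from 2.12 to 4.54 CPM at 5d. At 28d Ddit3 ran from 4.65 to 16.0 CPM with a median of 5.95 CPM, kidney 7 being highest. Gdf15 was at 20.3, 13.0 and 35.0 CPM on average in sham, 5d and 28d kidneys. In the paper, DESeq2 and quantitative PCR both gave a significant rise of Gdf15 at 28d. Among the enzymes of amino acid synthesis in this list, the log2 fold change at 28d against sham was −0.40 for Asns, −0.29 for Psat1 and 0.09 for Phgdh, with adjusted p of 0.643, 0.622 and 0.89. Shmt2, another enzyme of the list, was at 196 ± 17.2 CPM in sham, 174 ± 25.3 CPM at 5d and 208 ± 22.5 CPM at 28d. Its unadjusted p was under 0.05 at 28d against 5d, where it was higher, but not at 28d against sham. The edgeR calls are of the one fit to 22 kidneys and were not refitted under other settings.

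Of the 6 tested ATF4 carriers, 2 had a log2 fold change above 0 and 4 below 0 at 28d against sham, with a median of −0.14. Slc38a2, a sodium-coupled carrier of small neutral amino acids that is induced when they run short, ranged from 56.8 to 78.5 CPM in sham (median 69.1), 54.6 to 89.2 CPM at 5d (median 73.4) and 67.1 to 98.0 CPM at 28d (median 86.7). At 28d 4 of 6 kidneys lay above all sham kidneys, and at 5d 4 of 8 did. Estimates of its log2 fold change were 0.10 at 5d, 0.33 at 28d (SE 0.11, 95% interval 0.10 to 0.56, edgeR adjusted p = 0.361) and 0.24 between the times (adjusted p = 0.534). With all 30116 genes in the fit, where many more genes were called than in the main fit, it passed at 28d with an adjusted p of 0.00856.

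Slc1a5, a glutamine carrier, lay the other way. It ranged from 44.4 to 75.5 CPM in sham (median 57.2), 28.2 to 61.7 CPM at 5d (median 46.0) and 36.2 to 56.7 CPM at 28d (median 39.7). At 5d 3 of 8 kidneys and at 28d 4 of 6 were below every sham kidney, and none at either time was above the sham range. Its log2 fold change was −0.38 at 5d (SE 0.14, edgeR adjusted p = 0.501) and −0.45 at 28d (SE 0.15, edgeR adjusted p = 0.377). With the adipocyte score in the fit these were −0.17 and −0.18 (adjusted p = 0.742 and 0.715), and with the blood score −0.12 at 5d. In sham and at 5d the kidney lowest in Slc1a5 (sham kidney 8 and 5d kidney 6) was also the lowest in the summed adipocyte list, and 28d kidney 7 was the highest of its group in both. Other kidneys did not match: at 28d kidney 3 was lowest in Slc1a5 and kidney 6 in the list. Highest in Slc1a5 were sham kidney 5 and 5d kidney 9, but in the list sham kidney 1 and 5d kidney 7. Slc7a5, the light chain for large neutral amino acids, was at 1.25 to 10.5 CPM over all kidneys and had a log2 fold change of −0.61 at 28d with an interval of −1.31 to 0.10 (adjusted p = 0.65). The cationic amino acid carrier Slc7a1 had −0.18 at 5d and −0.15 at 28d (adjusted p = 0.88 and 0.902).

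**Figure D4:**
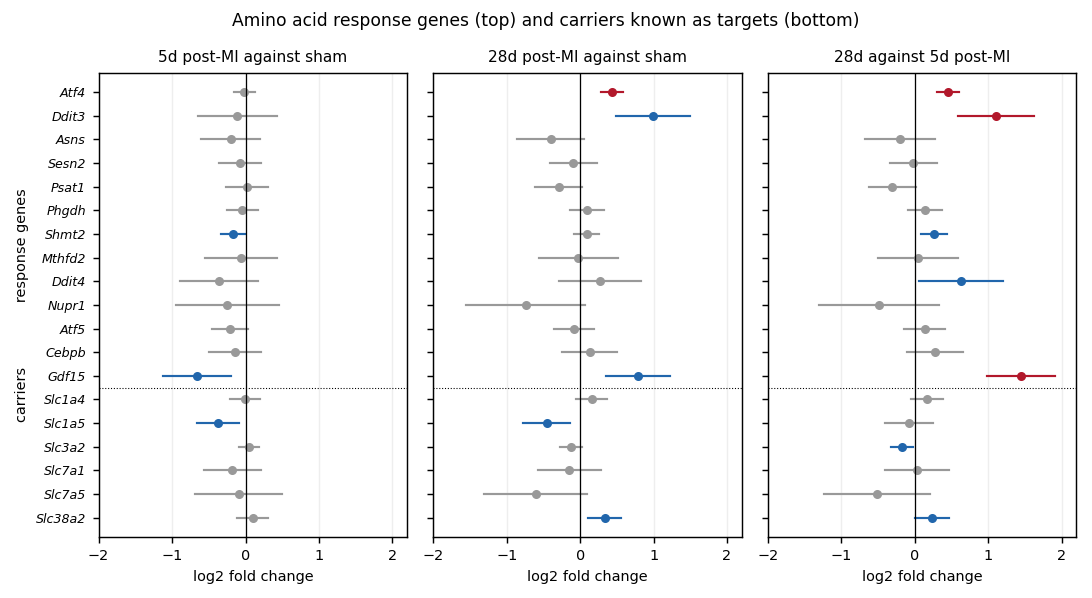
Points are edgeR log2 fold changes with 95% intervals of 13 amino acid response genes (above the dotted line) and 6 carriers known as ATF4 targets (below it), in red where the adjusted p is under 0.05, blue where only the unadjusted p is, and grey otherwise. Atf4, Ddit3 and Gdf15 lie right of 0 at 28d against 5d, and the carriers lie on both sides of 0.

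A further 4 members with other roles had an unadjusted p under 0.05. Slc38a1, a glutamine carrier whose gene neighbours Slc38a2 on chromosome 15, ranged from 2.697 to 5.95 CPM in sham (median 3.88), 2.35 to 3.67 CPM at 5d (median 3.48) and 1.12 to 2.85 CPM at 28d (median 2.46). All 6 kidneys at 28d were below the sham mean and 4 below every sham kidney, but these levels rest on 3 to 9 counts per kidney at 28d and 9 to 21 in sham. As log2 fold change this was −0.32 at 5d and −0.90 at 28d (SE 0.26, 95% interval −1.43 to −0.37, edgeR adjusted p = 0.255). At 28d all kidneys were under the filter's minimum of 10 counts, so Slc38a1 was tested only through sham and 5d kidneys. The test of a lower level at 28d therefore cannot decide.

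Slc38a7, a lysosomal glutamine carrier, ranged from 6.45 to 11.6 CPM in sham (median 9.49), 8.06 to 12.3 CPM at 5d (median 9.74) and 9.67 to 13.8 CPM at 28d (median 12.7). At 28d 4 of 6 kidneys exceeded every sham kidney, and the log2 fold change was 0.38 (SE 0.14, edgeR adjusted p = 0.417). Slc36a4, a carrier of proline and tryptophan, ran from 4.88 to 8.79 CPM in sham (median 7.23), 2.80 to 6.63 CPM at 5d (median 5.10) and 2.85 to 7.85 CPM at 28d (median 5.05). All 8 kidneys at 5d lay below the sham mean, and the log2 fold change was −0.53 at 5d (edgeR adjusted p = 0.503) and −0.48 at 28d (adjusted p = 0.554). Slc6a15, a neutral amino acid carrier best known from brain, was between 15.3 and 23.5 CPM in sham, 16.1 and 26.7 CPM at 5d and 16.3 and 24.9 CPM at 28d, with a log2 fold change of 0.29 at 5d (edgeR adjusted p = 0.501).

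The other 14 tested members, Slc7a6 included and among them the creatine carrier Slc6a8, the lysosomal amino acid sensor Slc38a9 and the glial-type glutamate carriers Slc1a2 and Slc1a3, had unadjusted p-values over 0.05 in all 3 comparisons. Of the genes known to regulate these carriers, 3 of 9 tested had an unadjusted p under 0.05 at 5d and 1 at 28d, beside 7.9% and 8.68% of all genes. The proximal tubule factor Hnf4a was 0.12 (adjusted p = 0.598), the ubiquitin ligase Nedd4l 0.25 (adjusted p = 0.12) and the mTORC1 subunit Rptor −0.26 (adjusted p = 0.564), and at 28d 1, Hnf4a, was 0.15 (adjusted p = 0.507). None was called.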

How the data were processed

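Kidney RNA was isolated from snap-frozen tissue and 3′ end (MACE) libraries with unique molecular identifiers were made. Trimming (Cutadapt), mapping and counting of reads per gene (HTSeq) were done by the authors, and Bowtie2, FastQC and DESeq2 are also named in the submitters' processing notes. The paper names build mm10 and the labels mm39, and annotation release and strand setting are not given in the sources used here. Deposited were the authors' raw counts per gene and values named tpm, which are CPM that the authors made from each kidney's total (equal within 5e-06, not divided by length). Of 48 columns, 4 share names and were not used, so 22 of 24 labelled kidneys remained, 1 short at 5d and 1 at 28d. Symbols and coordinates came from GENCODE M21 (51948 of 56941 identifiers matched).

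Counts were filtered by edgeR's filterByExpr (minimum 10), normalized by TMM and fitted in one robust quasi-likelihood model of the 3 groups without covariates (R 4.3.3, edgeR 4.0.16), which left 12780 of 30116 genes with a count. F tests were two-sided with Benjamini-Hochberg adjustment over all tested genes, and genes were called at an adjusted p under 0.05. Intervals are 95%. DESeq2 1.42.0 and limma 3.58.1 (voom) were alternatives, beside other size factors, no filter, single comparisons, kidneys left out and marker scores as covariates, of which the proximal tubule score was chosen after seeing the data. Tested on simulated counts of 12780 genes for 5d against sham, edgeR called 182 of 200 genes changed by a log2 of 1, and 7 unchanged genes. Only this size of change was simulated, which is larger than most carrier estimates. Pairs of kidneys within groups differed beyond sampling noise (chi-squared per degree of freedom 1.69 to 7.21). Values were given for members at a mean tpm of 1 or more that had an unadjusted p under 0.05 in any comparison, or that were set down as tubular or ATF4 carriers, and for Slc7a6 of the basolateral list. Members and lists were chosen with earlier results of these data known, and 1 member and 1 gene of another list are not reported here.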

Additional observations from a re-analysis of the deposited data

Results flagged for a closer look

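Of 123 sets of values, a member in a group of kidneys, 4 held a kidney whose gap to the next exceeded Dixon's 95% critical value, which chance passes in about 1 in 20. Slc38a6 was at 16.4 CPM in 5d kidney 1, with the next at 12 CPM. Slc6a17 was at 19.6 CPM in sham kidney 1, with the next at 13.5 CPM. Slc7a6, a basolateral carrier of cationic amino acids, was at 8.12 CPM in 5d kidney 7, which had the highest medulla list, with the next at 4.89 CPM. Slc7a6os was at 11.9 CPM in sham kidney 3, with the next at 9.1 CPM. None of these members had an unadjusted p under 0.05 in any comparison.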

How the results depend on the processing

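With no filter on low counts 2 members were called at 5d (Slc6a20a 0.45, Slc6a6 0.25) and 2 at 28d (Slc7a8 −0.39, Slc38a2 0.33), and with only the groups compared 2 at 28d (Slc7a8 −0.39, Slc7a13 0.27), where genes called in all were 80, 94 and 31 in place of 9, 3 and 3. DESeq2 called 35, 30 and 93 genes and limma voom 5, 5 and 50 in the 3 comparisons, in place of 9, 3 and 53, and no member. The number of members with an unadjusted p under 0.05 was 5 at 5d with the adipocyte score and 2 with the blood score, in place of 8. Between 28d and 5d it was 3 with only these groups, 4 without the kidneys with adrenal genes and 3 with the proximal tubule score, in place of 7. The median log2 fold change of the members was 0.0191 with the adipocyte and −0.10 with the blood score at 28d. Between 28d and 5d it was −0.0379 with voom, −0.0261 with the adipocyte, −0.16 with the blood and −0.0391 with the proximal tubule score. With the blood score, whose list was higher at 5d in every kidney than in any sham kidney, estimates changed sign at 5d for Slc7a8 (0.0117), Slc6a18 (−0.0137), Slc43a2 (0.10), Slc6a13 (−0.0100), Slc6a19 (0.29) and Slc36a1 (0.0680), and between 28d and 5d for Slc6a18 (0.17) and Slc43a2 (−0.25). Of the 2405 estimates of single members under an alternative, 52 others changed sign while within 1 SE of 0 in both fits. The cause of these shifts was not tested.

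Leaving out 1 kidney at a time (22 fits), 0 members were called in each comparison, the unadjusted numbers were 6 to 9, 6 to 11 and 3 to 7, and the medians 0.00653 to 0.0607, −0.0640 to −0.00327 and −0.12 to −0.0175, the lowest at 5d being without 5d kidney 7. Kidneys with the same number in different groups did not deviate together (18 pairs, correlation −0.127 to 0.0899, and 2 of 22 kidneys correlated best with their own number). With the number as a replicate block 0 members were called, with unadjusted numbers of 7, 11 and 7 and medians of 0.04, −0.05 and −0.05. Intervals at 28d reached beyond a 2-fold change for Slc38a1, Slc7a12 and Slc7a5. In sham the CV between kidneys was 24.8% for Slc38a1, where counting alone gives 28.0%, but 90.8% against 37.8% for Slc7a12 and 49.8% against 24.2% for Slc7a5.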
